A study of Mus musculus with 3 samples.

Results

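The genes described here are 7 mouse genes grouped for their known roles, or those of their families, in blood cells: Septin1, Myo1g, Inpp5d, Ptprcap, Cfp, Ms4a10 and Klrb1b. They were picked, with the results of these arrays known, for a higher level on the array labelled as re-expressing Pcgf6 than on the Pcgf6 knockout array, and were then read against wildtype. They are 7 of 20284 named genes on the array and are covered by 11 of its 55681 probes. Of the 7 genes, 6 gave a signal well above background on all 3 arrays. The exception was Klrb1b, which did so only on the array labelled as re-expressing. Among the 6, only 4 were lower in Pcgf6KO than in wildtype by 2-fold or more (Septin1, Myo1g, Inpp5d and Ptprcap), where 2.81% of all genes compared were. A description of the whole group as lowered in the knockout therefore does not hold at that size for Cfp and Ms4a10 and cannot be checked for Klrb1b.

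Gene expression was measured in male mouse embryonic stem cells on one-colour arrays, with total RNA labelled in Cy3. There were 3 groups of 1 array each. Pcgf6KO+ Pcgf6_flag cells were Pcgf6KO cells that had received Pcgf6_flag by lentiviral infection, Pcgf6KO cells were made with Cas9, and wildtype cells were unedited. All 3 were kept in serum and leukemia inhibitory factor on mouse embryonic fibroblasts that mitomycin-C had stopped from dividing, so RNA of these feeder cells may be present in each sample. The labels give no strain, clone or promoter of the transgene, and their source field names muscle while the cell type field names embryonic stem cells. With 1 array per group there was no replicate check, no test was possible, and every difference below is a difference between single arrays.

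Pcgf6 is the defining subunit of the variant Polycomb complex PRC1.6, which also holds MGA, MAX and E2F6 and is known in mouse embryonic stem cells for keeping germline genes silent. Embryonic stem cells are not blood cells, and genes of lymphocytes, macrophages and natural killer cells are generally low in them. The genes described, or their families, have separate tasks in blood cells. Septin1 and Myo1g belong to the cytoskeleton under the membrane, and Inpp5d and Ptprcap act in signalling below immune receptors. Cfp works in complement, and Ms4a10 and Klrb1b are membrane proteins.

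The promoters of 3 of the genes are shown as examples: Myo1g had the largest difference between Pcgf6KO and wildtype among those with a sequence at hand, and Inpp5d and Klrb1b held the one searched motif that was found. RefSeq promoter sequences of build GRCm38.p6 were at hand for 5 of the 7 genes (Myo1g, Inpp5d, Cfp, Ms4a10 and Klrb1b). Each run holds the 250 bases before the annotated start, 5′ to 3′ on the gene's strand, with every CG dinucleotide and every ETS core (GGAAGT or its reverse complement ACTTCC) in capitals. The Myo1g run lies at chr11:6520959-6521208 on the minus strand, the Inpp5d run at chr1:87620062-87620311 on the plus strand and the Klrb1b run at chr6:128826316-128826565 on the minus strand.
Myo1g: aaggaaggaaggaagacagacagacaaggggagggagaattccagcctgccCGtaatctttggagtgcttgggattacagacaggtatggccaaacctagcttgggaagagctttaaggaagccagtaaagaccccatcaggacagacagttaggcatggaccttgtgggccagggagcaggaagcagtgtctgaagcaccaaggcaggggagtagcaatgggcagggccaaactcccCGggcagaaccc
Inpp5d: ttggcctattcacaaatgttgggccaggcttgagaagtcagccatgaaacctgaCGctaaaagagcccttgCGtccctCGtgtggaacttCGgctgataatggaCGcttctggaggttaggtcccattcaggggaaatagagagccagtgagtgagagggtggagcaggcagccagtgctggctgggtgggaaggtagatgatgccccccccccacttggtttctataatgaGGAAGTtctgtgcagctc
Klrb1b: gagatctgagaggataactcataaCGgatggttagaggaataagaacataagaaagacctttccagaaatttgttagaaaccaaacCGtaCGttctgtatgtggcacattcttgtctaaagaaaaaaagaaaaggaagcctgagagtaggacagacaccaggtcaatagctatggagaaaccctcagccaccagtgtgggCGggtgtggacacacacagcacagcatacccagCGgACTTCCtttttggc

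CG dinucleotides numbered 2 in Myo1g, 5 in Inpp5d, 2 in Cfp, 0 in Ms4a10 and 5 in Klrb1b, against a median of 6 and quartiles of 2 and 16 over 32851 RefSeq promoter windows of the same length. Both strands were searched for 6 motifs. The E-box of MAX and MGA (CACGTG, in 6.02% of all windows), the E2F site (TTCCCGC, 3.82%), the T-box site (AGGTGTGA, 1.12%), the RUNX core (TGTGGT, 14.0%) and the GATA core (AGATAA, 9.99%) were found in none of the 5 genes' windows. The ETS core, present in 19.7% of all windows, was found in Inpp5d, starting 18 bases before the start, and in Klrb1b, starting 14 bases before it. A match is a run of letters and not a shown binding site, and a missing match says only that those letters are not in the window.

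A level below is log2 of the processed spot signal minus the array's own 75th percentile, so 0 is the brightness of a probe at that percentile. The 75th percentile signal was 4619 on the Pcgf6KO+ Pcgf6_flag array, 4292 on the Pcgf6KO array and 3917 on the wildtype array, and 60.7%, 66.0% and 65.3% of probes on these arrays, in that order, were well above background. The Pcgf6KO+ Pcgf6_flag array was alone on slide 2 and the other arrays shared slide 1, so its slide and its group cannot be told apart. The Pcgf6 probe itself read 0.42 in Pcgf6KO+ Pcgf6_flag, 0.84 in Pcgf6KO and 1.87 in wildtype. Its Pcgf6KO minus wildtype difference was −1.03 log2 units. It was not higher on the array labelled as re-expressing, where Pcgf6KO+ Pcgf6_flag minus Pcgf6KO was −0.42. The labels do not state which stretch of the transcript the edit removed or the transgene carries, so the probe is no check of the labels. The spread between repeated spots of one probe gave an SD of 0.10 to 0.11 log2 units for a difference between 2 arrays, which covers spot error only and not the spread between cultures. In such bulk RNA fewer cells carrying a transcript and less transcript per cell cannot be told apart.

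**Figure D1:**
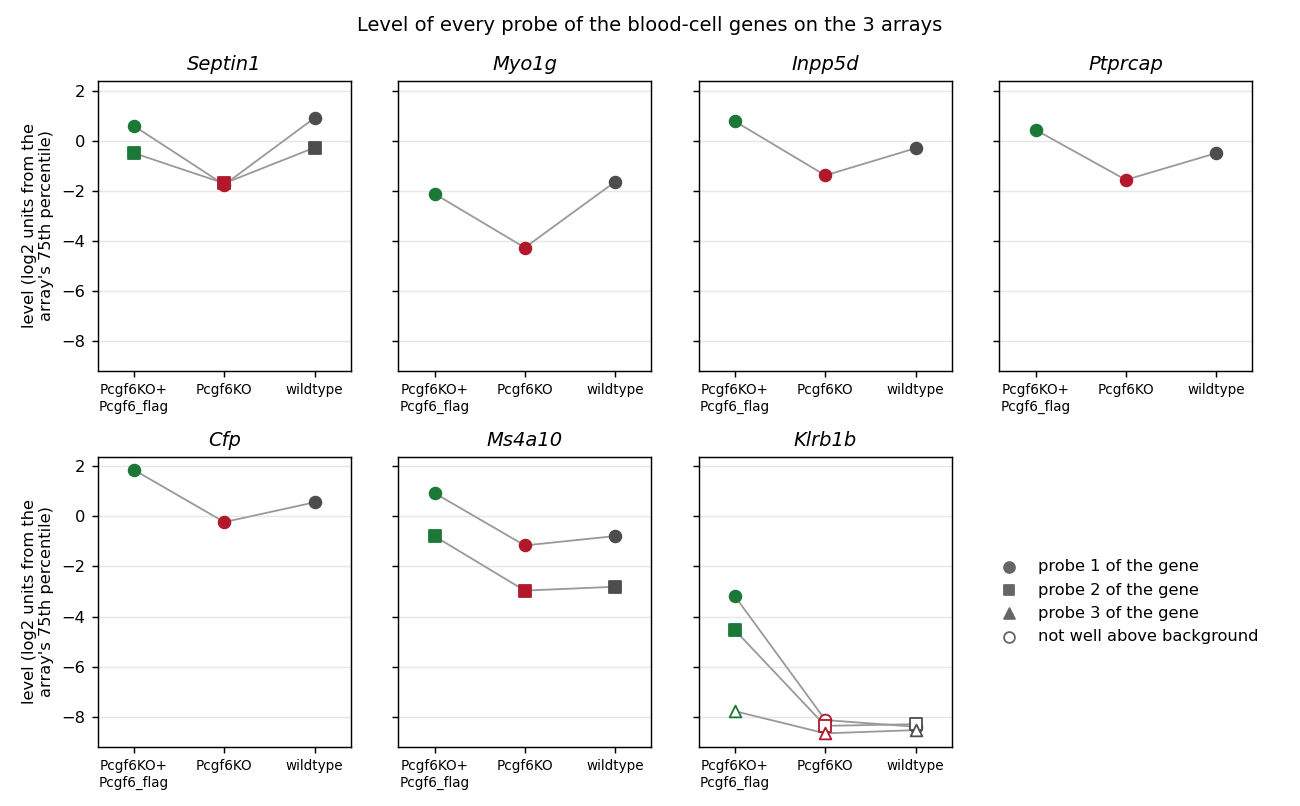
Level of each probe of the 7 genes on the 3 arrays, in log2 units from the array's 75th percentile; each point is 1 array, symbols separate the probes of a gene, and open symbols are not well above background. The Pcgf6KO point is the lowest for every probe of the 6 genes other than Klrb1b, whose Pcgf6KO and wildtype points are all open.

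Septin1, a GTP-binding septin of the cytoskeleton that is enriched in lymphocytes, had the largest difference between Pcgf6KO and wildtype of the 7 genes. Its brighter probe (chromosome 7) had a level of 0.59 in Pcgf6KO+ Pcgf6_flag, −1.76 in Pcgf6KO and 0.91 in wildtype. These are processed signals of 6931, 1266 and 7343 in the same order of arrays. The Pcgf6KO array stood apart, while the other arrays were close to each other. Pcgf6KO minus wildtype was −2.67 log2 units, 6.36-fold lower in Pcgf6KO, which placed Septin1 at rank 43 from the lowest of 15001 genes measured on both arrays. Pcgf6KO+ Pcgf6_flag minus Pcgf6KO was 2.35 and Pcgf6KO+ Pcgf6_flag minus wildtype was −0.32. The second Septin1 probe had the same order of arrays with smaller gaps. It read −0.50 in Pcgf6KO+ Pcgf6_flag, −1.71 in Pcgf6KO and −0.28 in wildtype, a Pcgf6KO minus wildtype difference of −1.43 and a Pcgf6KO+ Pcgf6_flag minus Pcgf6KO difference of 1.21. Both Septin1 probes were therefore past 2-fold in both comparisons but disagreed in size.

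Myo1g, a class I myosin that links the plasma membrane of blood cells to actin, followed the same course. On its single probe (chromosome 11) the level was −2.12 in Pcgf6KO+ Pcgf6_flag, −4.27 in Pcgf6KO and −1.64 in wildtype, from signals of 1061, 222 and 1254. Again only the Pcgf6KO array was low. Myo1g was 6.18-fold lower in Pcgf6KO than in wildtype (log2 difference −2.63, rank 46 from the lowest), 4.43-fold higher in Pcgf6KO+ Pcgf6_flag than in Pcgf6KO (2.15), and −0.48 units from wildtype in Pcgf6KO+ Pcgf6_flag.

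Inpp5d encodes SHIP1, the inositol 5-phosphatase that restrains PI3-kinase signalling below immune receptors. A shorter form that starts inside the gene is known from mouse embryonic stem cells, and which form the probe reads was not tested. The Inpp5d level (chromosome 1) was 0.77 in Pcgf6KO+ Pcgf6_flag, −1.39 in Pcgf6KO and −0.30 in wildtype, from signals of 7864, 1641 and 3176. All 3 arrays were apart here, with Pcgf6KO+ Pcgf6_flag highest. Inpp5d was 2.12-fold lower in Pcgf6KO than in wildtype (−1.08), 4.45-fold higher in Pcgf6KO+ Pcgf6_flag than in Pcgf6KO (2.15) and 1.07 log2 units above wildtype in Pcgf6KO+ Pcgf6_flag.

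Ptprcap encodes a transmembrane protein that associates with the phosphatase CD45 in lymphocytes. Its level (chromosome 19) was 0.43 in Pcgf6KO+ Pcgf6_flag, −1.57 in Pcgf6KO and −0.50 in wildtype, from signals of 6229, 1450 and 2771. Pcgf6KO was lowest and Pcgf6KO+ Pcgf6_flag highest. Ptprcap was 2.09-fold lower in Pcgf6KO than in wildtype (−1.07), 3.99-fold higher in Pcgf6KO+ Pcgf6_flag than in Pcgf6KO (1.997), and 0.93 units above wildtype in Pcgf6KO+ Pcgf6_flag, just short of 2-fold. The partner of Ptprcap, Ptprc (CD45), was near background: its level was −4.66 in Pcgf6KO+ Pcgf6_flag and −6.23 in Pcgf6KO, and it was not well above background in wildtype.

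Cfp encodes properdin, the positive regulator of the alternative complement pathway, and lies on chromosome X. The Cfp level was 1.85 in Pcgf6KO+ Pcgf6_flag, −0.23 in Pcgf6KO and 0.56 in wildtype, from signals of 16684, 3662 and 5773. The order of arrays was that of Inpp5d and Ptprcap, but the gap between Pcgf6KO and wildtype was smaller. Cfp was 1.73-fold lower in Pcgf6KO than in wildtype (−0.79), which does not pass 2-fold, and was 4.23-fold higher in Pcgf6KO+ Pcgf6_flag than in Pcgf6KO (2.08) and 2.45-fold higher than in wildtype (1.29).

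Ms4a10, which lies on chromosome 19 and belongs to the MS4A family of membrane-spanning proteins known from B cells and mast cells, hardly separated Pcgf6KO from wildtype. Its brighter probe read 0.93 in Pcgf6KO+ Pcgf6_flag, −1.16 in Pcgf6KO and −0.79 in wildtype, from signals of 8795, 1918 and 2269. Its second probe read −0.79 in Pcgf6KO+ Pcgf6_flag, −2.96 in Pcgf6KO and −2.81 in wildtype. Both Ms4a10 probes showed 1 high array, Pcgf6KO+ Pcgf6_flag, and 2 arrays close together. Pcgf6KO minus wildtype was −0.37 on the first probe and −0.15 on the second, whereas Pcgf6KO+ Pcgf6_flag minus Pcgf6KO was 2.09 and 2.17 and Pcgf6KO+ Pcgf6_flag minus wildtype was 1.72 and 2.02.

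Klrb1b encodes NKR-P1B, an inhibitory lectin-like receptor of natural killer cells whose ligand is Clec2d. The brightest of its 3 probes (chromosome 6) had a signal of 504 in Pcgf6KO+ Pcgf6_flag, against 15.3 in Pcgf6KO and 11.6 in wildtype, and only the first of these was well above background. Set against the lowest signal well above background on the dimmer array, Klrb1b was at least 8.77-fold higher in Pcgf6KO+ Pcgf6_flag than in Pcgf6KO and at least 8.10-fold higher than in wildtype. The second Klrb1b probe had signals of 197 in Pcgf6KO+ Pcgf6_flag, 13.04 in Pcgf6KO and 12.5 in wildtype, giving bounds of at least 3.44-fold and at least 3.18-fold. The third probe was not well above background on any array. Klrb1b thus gave no difference between Pcgf6KO and wildtype. Whether these probes also take up RNA of the closely related Klrb1 genes was not tested, and the probes of Klrb1, Klrb1a and Klrb1c were not well above background on any array.

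**Figure D2:**
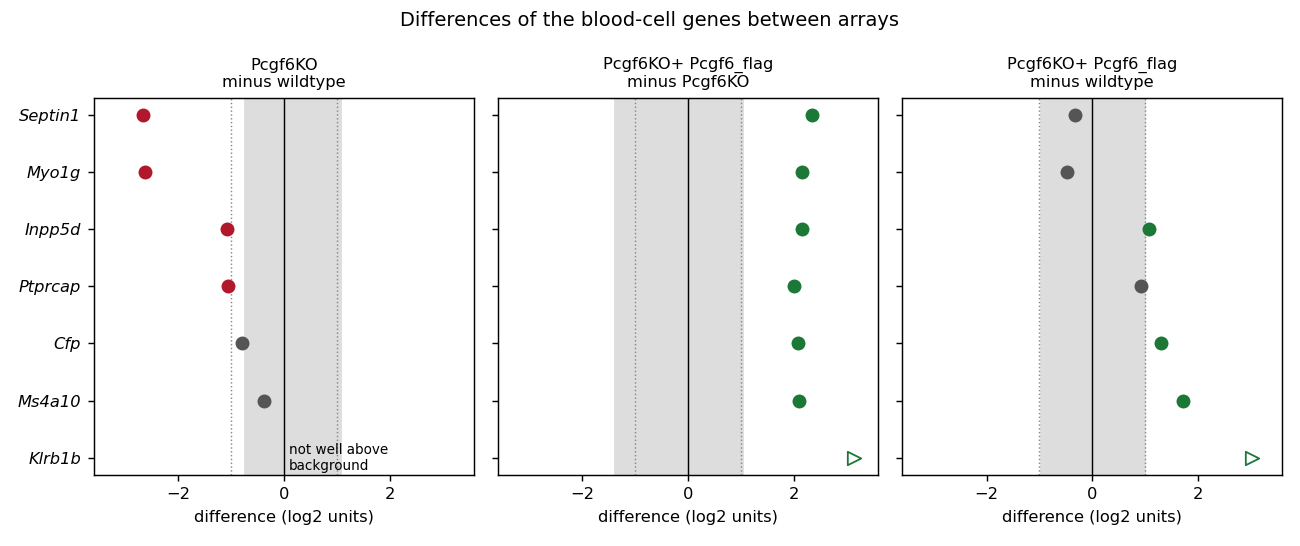
Differences between arrays for the 7 genes, in log2 units; dotted lines mark 2-fold, grey bands hold the central 90% of all genes measured on both arrays, red and green points are at least 2-fold lower and higher, grey points are within 2-fold, and the open triangle is the lower bound for Klrb1b. Pcgf6KO minus wildtype spreads from −2.67 to −0.37, Pcgf6KO+ Pcgf6_flag minus Pcgf6KO is between 1.997 and 2.35, and Pcgf6KO+ Pcgf6_flag minus wildtype runs from −0.48 to 1.72.

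Between Pcgf6KO and wildtype, 4 of the 6 measurable genes were at least 2-fold lower in Pcgf6KO, where 2.81% of 15001 genes were. None was 2-fold higher, where 5.81% of all genes were, and all 8 measured probes lay below 0. Inpp5d (−1.08) and Ptprcap (−1.07) were just past the 2-fold line and Cfp (−0.79) just short of it. The median difference was −1.08 log2 units for the 6 genes and −0.02 for all genes. The choice of the genes used the Pcgf6KO array, where a low value favours being picked, so this direction is not independent of the choice.

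Between Pcgf6KO+ Pcgf6_flag and Pcgf6KO, the comparison that chose the genes, 6 of 6 were at least 2-fold higher in Pcgf6KO+ Pcgf6_flag and Klrb1b passed as a bound, where 5.40% of 14238 genes were. None was 2-fold lower, where 8.37% of all genes were. Their median difference was 2.12, against 0.03 for all genes, and nothing is read from it. On the probes used the 6 values ran from 1.997 for Ptprcap to 2.35 for Septin1, whose second probe gave 1.21. Because these values chose the genes, nothing is read from their closeness either.

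Between Pcgf6KO+ Pcgf6_flag and wildtype, 3 of the 6 genes (Inpp5d, Cfp and Ms4a10) were at least 2-fold higher in Pcgf6KO+ Pcgf6_flag, with Klrb1b as a bound, where 4.90% of 14193 genes were. None was 2-fold lower, where 4.81% of all genes were. The median was 1.001, against −0.02 for all genes. This comparison and the one with Pcgf6KO share the Pcgf6KO+ Pcgf6_flag array. On these values the genes differed among themselves. Septin1 and Myo1g were slightly lower in Pcgf6KO+ Pcgf6_flag than in wildtype, Ptprcap, Inpp5d and Cfp were 0.93 to 1.29 log2 units above it, and Ms4a10 and Klrb1b were above it by more while Ms4a10 was little below wildtype in Pcgf6KO. Pcgf6KO lay at least 2-fold below both other arrays for 4 of the 6 (Septin1, Myo1g, Inpp5d and Ptprcap), where 0.777% of 14149 genes measured on all 3 arrays did. For 3 of them (Septin1, Myo1g and Ptprcap) the other arrays also differed by less than 2-fold, where 0.693% of all genes met both conditions. Standing below Pcgf6KO+ Pcgf6_flag is what the genes were chosen for and the Pcgf6KO value enters both conditions, so nothing is read from these 2 counts.

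The relatives of each gene were read from family and pathway lists, whose counts include the gene itself. Each gene was picked for its Pcgf6KO+ Pcgf6_flag minus Pcgf6KO difference, so nothing is read from its own place in its list. Of all genes, 2.81% were 2-fold lower and 5.81% higher in Pcgf6KO than in wildtype. In Pcgf6KO+ Pcgf6_flag relative to Pcgf6KO, 5.40% were higher and 8.37% lower. These and the later marker lists were chosen with earlier results of these data known, so nothing is read from a gap to those shares. Of 12 septins measured in Pcgf6KO and wildtype, Septin1 alone was 2-fold lower in Pcgf6KO. Septin4, a mitochondrial and sperm septin, was higher in Pcgf6KO: its level was −1.83 in Pcgf6KO+ Pcgf6_flag, 0.03 in Pcgf6KO and −1.75 in wildtype, the reverse of Septin1. In Pcgf6KO+ Pcgf6_flag relative to Pcgf6KO, 2 of 11 septins were higher (Septin1, and Septin12 of the sperm tail by 1.13) and Septin4 was lower (−1.86 log2 units). The list medians were 0.02 for Pcgf6KO minus wildtype and 0.27 for Pcgf6KO+ Pcgf6_flag minus Pcgf6KO.

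Among the 8 class I myosins, 2 were lower in Pcgf6KO than in wildtype, and they were the 2 members of the family best known from blood cells. Myo1f, which works in neutrophils and macrophages, had a level of −0.01 in Pcgf6KO+ Pcgf6_flag, −1.44 in Pcgf6KO and 1.35 in wildtype. Its Pcgf6KO minus wildtype difference of −2.79 was as large as that of Myo1g, and its Pcgf6KO+ Pcgf6_flag minus Pcgf6KO difference was 1.43, while Pcgf6KO+ Pcgf6_flag minus wildtype was −1.36. Myo1a of the intestinal brush border was 1.27 higher in Pcgf6KO+ Pcgf6_flag than in Pcgf6KO with no such gap between Pcgf6KO and wildtype (−0.09). The remaining class I myosins stayed within 2-fold in both comparisons, and the list medians were 0.06 and 0.25.

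Of 13 inositol phosphatases, Inpp5d alone was 2-fold lower in Pcgf6KO than in wildtype, and Inpp5j (1.46) and Inpp1 (1.06) were higher. Inpp5d was also the one of 12 that was 2-fold higher in Pcgf6KO+ Pcgf6_flag than in Pcgf6KO, the comparison that chose it. The list medians were 0.05 and −0.06. Inppl1, the SHIP2 paralogue that most tissues express, had levels of 2.10 in Pcgf6KO+ Pcgf6_flag, 2.14 in Pcgf6KO and 2.21 in wildtype, so its arrays were close together. Of 16 genes of SHIP1 partners and B-cell or Fc receptor signalling, 2 were lower in Pcgf6KO than in wildtype and none was higher, with a list median of −0.45. Fcgr2b, the inhibitory Fc receptor that recruits SHIP1, had a level of −1.09 in Pcgf6KO+ Pcgf6_flag, −3.93 in Pcgf6KO and −2.41 in wildtype, which is −1.51 for Pcgf6KO minus wildtype and 2.84 for Pcgf6KO+ Pcgf6_flag minus Pcgf6KO. The second was the adaptor Dok3, at −1.12 and 0.55. Between Pcgf6KO+ Pcgf6_flag and Pcgf6KO, 3 of 17 were higher, namely Fcgr2b, the activating Fc receptor Fcgr3 (2.18) and the adaptor Gab2 (1.33), with a list median of 0.24.

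Of 13 genes of CD45 and T-cell receptor signalling, 2 were lower in Pcgf6KO than in wildtype, Ptprcap and the surface glycoprotein Thy1 (−1.12). Thy1 is also one of the fibroblast markers read below, with a level of 0.91 in Pcgf6KO+ Pcgf6_flag, 1.20 in Pcgf6KO and 2.33 in wildtype. Thy1 did not share the course of Ptprcap, since it was −0.30 in Pcgf6KO+ Pcgf6_flag relative to Pcgf6KO. In that comparison 3 of 12 were higher: Ptprcap, Ptprc (1.57) and the co-receptor Cd4 (1.31). The list medians were 0.04 and 0.12.

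Complement held 17 genes measured in Pcgf6KO and wildtype, of which 1 was 2-fold lower in Pcgf6KO. This was Masp2, the protease that starts the lectin pathway, with a level of −1.32 in Pcgf6KO+ Pcgf6_flag, −3.96 in Pcgf6KO and −2.59 in wildtype (Pcgf6KO minus wildtype −1.38). Relative to Pcgf6KO, 5 of 16 were higher in Pcgf6KO+ Pcgf6_flag: Masp2 by 2.64, C1qa of the first component by 2.33, Cfp by 2.08, the receptor Cr2 by 1.62 and C2 by 1.05. Of these, C1qa was near background in Pcgf6KO, at −5.97. The protease C1ra was lower (−1.84), and the list medians were 0.05 and 0.17. The protease Masp1 and Cfb, which acts with properdin in the alternative pathway, were well above background only in Pcgf6KO+ Pcgf6_flag, at least 4.85-fold and at least 2.24-fold above Pcgf6KO. C1qa and Cr2 resembled Ms4a10 in that Pcgf6KO was not below wildtype by 2-fold (−0.16 for C1qa and 0.68 for Cr2).

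Of 15 Ms4a genes on the array, 8 were not well above background on any array, including Ms4a1 (CD20). Ms4a4c, in contrast, was bright on every array, with close levels of 5.46 in Pcgf6KO+ Pcgf6_flag, 5.21 in Pcgf6KO and 5.51 in wildtype. Of 4 measured in Pcgf6KO and wildtype, Ms4a4d was higher in Pcgf6KO (1.64), none was lower among measured values, and Ms4a13 was at least 2.47-fold lower as a bound. Ms4a10 and Ms4a5 (1.45) were the 2 of 3 that were higher in Pcgf6KO+ Pcgf6_flag than in Pcgf6KO. Of 29 natural killer receptors and Clec2 ligands, 19 were not well above background on any array. Of the 5 measured in Pcgf6KO and wildtype none passed 2-fold. As bounds, Klra4 was at least 15.9-fold and Klra1 at least 3.23-fold lower in Pcgf6KO than in wildtype. Clec2e was the 1 of 3 that was higher in Pcgf6KO+ Pcgf6_flag than in Pcgf6KO (1.84). Klrb1f was well above background only in Pcgf6KO, at least 2.59-fold above Pcgf6KO+ Pcgf6_flag, the opposite of Klrb1b, and at least 4.30-fold above wildtype.

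**Figure D3:**
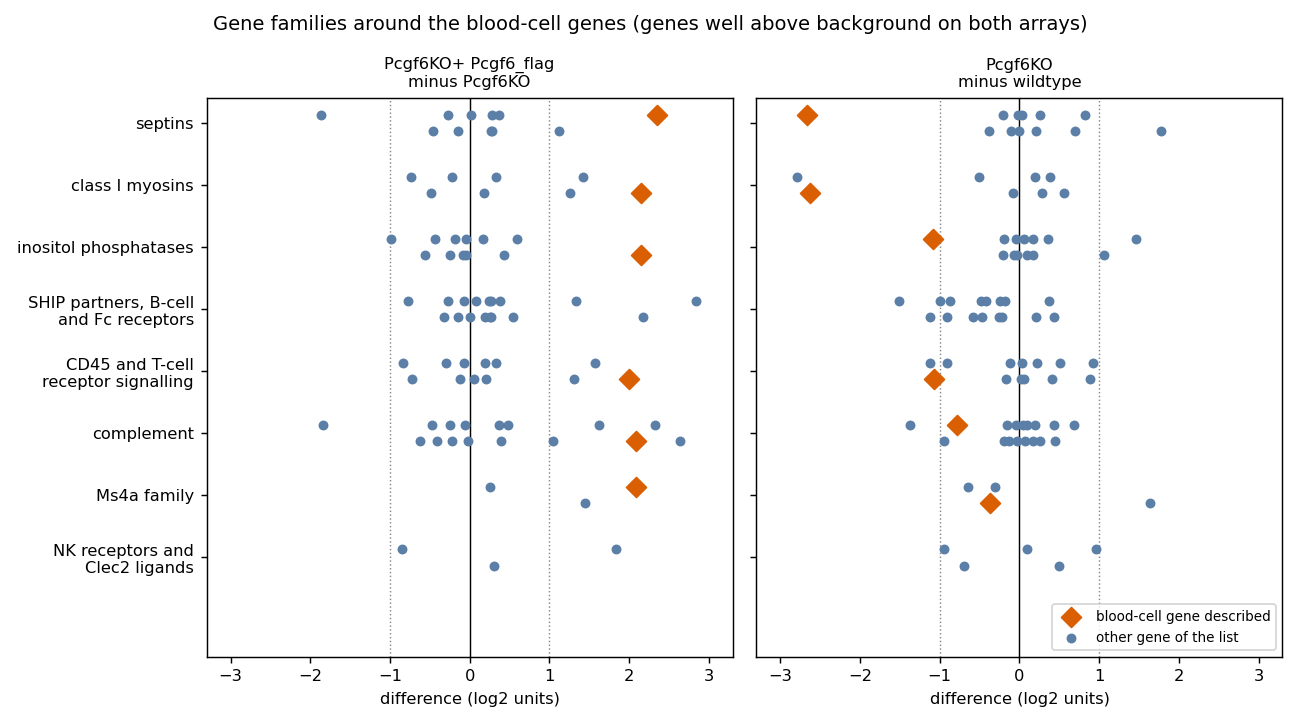
Differences in log2 units for every gene of the 8 family and pathway lists that was well above background on both arrays, Pcgf6KO+ Pcgf6_flag minus Pcgf6KO on the left and Pcgf6KO minus wildtype on the right; diamonds are the genes described and dotted lines mark 2-fold. Septin1 and Inpp5d lie apart from the other genes of their lists in both comparisons, Myo1g lies with Myo1f on the right, and Klrb1b is not drawn because its value is a bound. The left comparison chose the genes described and its Pcgf6KO array enters the right one, so nothing is read from their standing apart.

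General leukocyte markers did not move as one group. Of 24 such genes on the array, 5 were not well above background on any array, among them Spi1 (PU.1), the transcription factor of the myeloid and B-cell lineages, and Tyrobp. The genes measured numbered 18 in Pcgf6KO+ Pcgf6_flag, 19 in Pcgf6KO and 15 in wildtype. Summed levels were 13.2, 10.3 and 13.6 times the 75th percentile signal of those arrays. Each such sum, here and below, covers every gene of the list that was well above background on at least 1 array. The brightest gene of the sum was Arhgap45 in Pcgf6KO+ Pcgf6_flag (35.7%), Ptpn6 in Pcgf6KO (24.0%) and Arhgdib in wildtype (20.8%). Coro1a, the haematopoietic coronin, had nearly equal levels of −0.09 in Pcgf6KO+ Pcgf6_flag, 0.14 in Pcgf6KO and 0.05 in wildtype. The integrin Itgb2 was lowest in Pcgf6KO by a small margin, at −3.42 in Pcgf6KO+ Pcgf6_flag, −4.32 in Pcgf6KO and −4.18 in wildtype.

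Of 15 leukocyte markers measured in Pcgf6KO and wildtype, 2 were 2-fold lower in Pcgf6KO (2.81% of all genes) and 1 was higher (5.81% of all genes). Their median was −0.49. The lower ones were the glycoprotein Cd52 (−1.89) and Arhgdib (−1.23), and the higher one was the exchange factor Vav1 (1.04). On the array labelled as re-expressing, relative to Pcgf6KO, 7 of 18 were higher (5.40% of all genes) and 4 were lower (8.37% of all genes). Their median was 0.63. Ptprc (1.57), Was (1.55), Dock2 (1.55) and Cd52 (1.54) headed the first set, and Lsp1 (−2.54) and Arhgdib (−2.08) headed the second. Cd52 alone had the course of Septin1 and Myo1g, with a level of −3.31 in Pcgf6KO+ Pcgf6_flag, −4.84 in Pcgf6KO and −2.96 in wildtype.

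**Figure D4:**
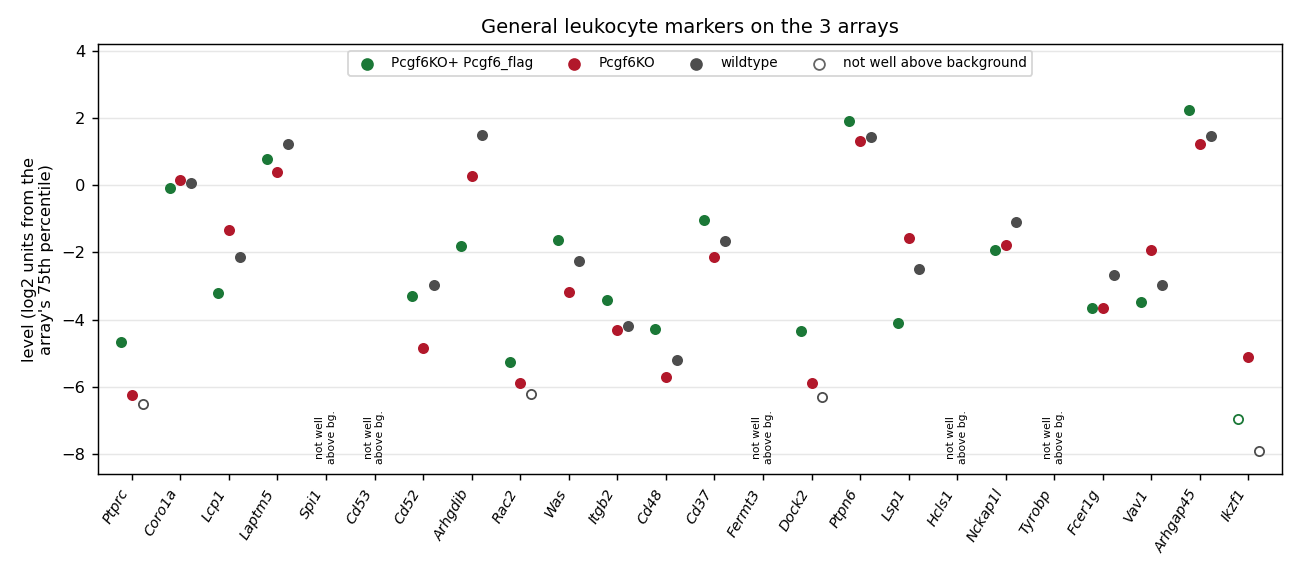
Level of 24 general leukocyte markers on the 3 arrays, in log2 units from the array's 75th percentile; open points are not well above background, and 5 genes without points were not well above background on any array. Cd52 has its Pcgf6KO point more than 2-fold below both others, whereas Lcp1, Lsp1 and Vav1 have it highest.

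Markers of other blood lineages, in 6 lists, had 4 higher and 1 lower of 53 genes measured in Pcgf6KO and wildtype. Of all genes 5.81% were higher and 2.81% lower, and 3 of the markers were lower as bounds. In Pcgf6KO+ Pcgf6_flag relative to Pcgf6KO they had 9 higher and 6 lower of 47, beside the 5.40% and 8.37% of all genes. Macrophage markers numbered 8 measured in Pcgf6KO+ Pcgf6_flag, 11 in Pcgf6KO and 12 in wildtype, with summed levels of 30.7, 22.6 and 25.9. The integrin Itgam alone, with levels of 4.80 in Pcgf6KO+ Pcgf6_flag, 4.35 in Pcgf6KO and 4.57 in wildtype, made up 90.1% to 91.8% of these sums, while Adgre1 (F4/80), C1qc, Cx3cr1 and Cybb were not well above background on any array. Of 11 compared between Pcgf6KO and wildtype 2 were higher and 0 lower. Among 8 B cell genes 1 was lower and 0 were higher in Pcgf6KO, with summed levels of 11.1 in Pcgf6KO+ Pcgf6_flag, 7.59 in Pcgf6KO and 7.98 in wildtype, of which the receptor Cd22 made up 57.8% to 65.4%. The B-cell receptor gene Cd79a was not well above background on any array. Of 8 T and natural killer cell genes and of 7 erythroid and megakaryocyte genes none passed 2-fold between Pcgf6KO and wildtype. Granulocyte and mast cell genes gave 1 higher of 5, with 2 lower as bounds (Mcpt8 and S100a8), and blood progenitor and endothelial genes 1 higher of 14. Over the 7 blood lists together, 62 genes were measured on all 3 arrays, and 1 of them, Cd52, had Pcgf6KO at least 2-fold below both other arrays. Over the family and blood lists without the 7 genes, 4 of 125 had this course (3.20%, beside 0.777% of all genes): Cd52, Fcgr2b, Masp2 and Myo1f. These lists were chosen with earlier results of these data known, so nothing is read from that share. Whether a few blood cells were among the cultures was not tested.

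Fibroblast markers, which the feeder cells carry, also differed between the arrays. Of 20 genes on the array, 13 were measured in Pcgf6KO+ Pcgf6_flag, 16 in Pcgf6KO and 19 in wildtype, and their summed levels were 25.1, 32.6 and 64.8. Of 16 compared between Pcgf6KO and wildtype, 9 were lower and 0 higher in Pcgf6KO, with a median of −1.07. Of 13 compared between Pcgf6KO+ Pcgf6_flag and Pcgf6KO, 8 were lower and 0 higher in Pcgf6KO+ Pcgf6_flag, with a median of −1.96. By summed level, fibroblast markers were thus lowest in Pcgf6KO+ Pcgf6_flag and highest in wildtype, and their part in the results was not tested. The brightest gene of the sum was Fn1 in Pcgf6KO+ Pcgf6_flag (42.2%) and Vim in Pcgf6KO (31.6%) and wildtype (25.6%). Fn1 had close levels of 3.40 in Pcgf6KO+ Pcgf6_flag, 3.31 in Pcgf6KO and 3.39 in wildtype. The sums therefore understate how far most of the other fibroblast markers differed. The 20 pluripotency markers were measured on every array, none passed 2-fold in any comparison, and their summed levels were 216 in Pcgf6KO+ Pcgf6_flag, 186 in Pcgf6KO and 214 in wildtype. Of the 15 PRC1.6 subunits, Pcgf6 was the one past 2-fold between Pcgf6KO and wildtype (−1.03). Between Pcgf6KO+ Pcgf6_flag and Pcgf6KO it was Yaf2 (−1.16), and between Pcgf6KO+ Pcgf6_flag and wildtype again Pcgf6 (−1.45).

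The genes most like the group were sought over the 3 arrays among 13596 genes measured on all of them, a number that leaves out the 7 genes and predicted genes with no symbol of their own, by the distance of their 2 differences (Pcgf6KO minus wildtype and Pcgf6KO+ Pcgf6_flag minus Pcgf6KO) from the medians of the 6 genes, −1.08 and 2.12. The 8 nearest were Spata21, Adgrg5, Ldhd, Plpp7, Fcgr3, Zscan5b, Klk1b4 and Cav1, at distances of 0.08 to 0.21 log2 units. Adgrg5 is an adhesion G protein-coupled receptor of blood cells and Fcgr3 the Fc receptor named above. The others have different known roles, such as Ldhd in D-lactate oxidation and Cav1 in caveolae. Spata21 had a level of −3.61 in Pcgf6KO+ Pcgf6_flag, −5.71 in Pcgf6KO and −4.55 in wildtype. Of the 6 genes, only Inpp5d and Ptprcap lay as near to the medians as these 8. Septin1 (−2.67 for Pcgf6KO minus wildtype), Myo1g (−2.63), Cfp (−0.79) and Ms4a10 (−0.37) lay further away. The 8 were near in differences and not in level. Their Pcgf6KO levels ran from −5.71 to −4.00, where Myo1g (−4.27) was the only one of the 6 genes as dim.

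The 7 genes lie on 6 chromosomes (7, 11, 1, 19, X and 6, with Ptprcap and Ms4a10 both on 19). For the 2 genes on each side of every one in RefSeq order, 28 in all and chosen by position, 21 were measured on the arrays. Of these, 1 was 2-fold lower and 1 higher in Pcgf6KO than in wildtype. The lower one was Mylpf, a myosin light chain of skeletal muscle whose RefSeq span overlaps that of Septin1. Mylpf had a level of −0.24 in Pcgf6KO+ Pcgf6_flag, −1.16 in Pcgf6KO and 0.28 in wildtype, the same order of arrays as Septin1 with a Pcgf6KO minus wildtype difference of −1.44. The higher one was Ngef, beside Inpp5d (1.27). Between Pcgf6KO+ Pcgf6_flag and Pcgf6KO, Gpr152 beside Ptprcap was higher (1.07) and Ngef was lower (−1.26), and the remaining 19 neighbours stayed within 2-fold.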

How the data were processed

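Total RNA of the 3 groups was hybridised to 1 Agilent one-colour array each. The deposited scanner output holds spot intensity on a linear scale, background-subtracted by Agilent Feature Extraction, version 11.5.1.1 per the file headers and 10.7 per the submitters' processing notes. The deposited value table of the series held the same intensity for 55249 of 55249 single-spot probes (relative tolerance 1e-06). It is linear, unscaled and uncentred, with column medians of 313 (Pcgf6KO+ Pcgf6_flag), 273 (Pcgf6KO) and 243 (wildtype).

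Control spots and spots marked as outliers (192 in Pcgf6KO+ Pcgf6_flag, 158 in Pcgf6KO and 141 in wildtype of 59305 non-control spots) were left out, 0 spots were saturated, and spots of one probe were averaged. Processed signals were taken to log2 and each array was centred on its 75th percentile. Probes were used where over a share of 0.5 of their remaining spots passed the scanner's well-above-background flag, and a gene was read from its brightest such probe. If only 1 array of a pair passed, a bound was given, with the dim array set at its own signal or at its faintest passing signal (103 in Pcgf6KO+ Pcgf6_flag, 53.4 in Pcgf6KO and 52.7 in wildtype), whichever was brighter. Symbols came from RefSeq (GRCm38.p6) through accessions stripped of their version, and 26762 of 55681 probes were named. The array design is on mm9, so gene coordinates of GRCm38.p6 were used only for gene order and for the promoter windows. Probe sequences were not used here.

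The number of arrays limits the precision: with 1 per group a fixed 2-fold rule replaced tests. The genes, the family, pathway and marker lists and the comparisons were chosen with earlier results of these data known. Genes named are the 7 genes, up to 4 per list and comparison by size, Ptprc, Spi1, Coro1a, Itgb2, Pcgf6, the defining genes of marker lists and the 8 genes nearest in pattern. The neighbouring genes, Inppl1, Was, C2, Cfb, Itgam, Cd22, Fn1, Vim, Ms4a4c, Arhgap45, Ptpn6 and a few genes that were not well above background on any array were named after their values were seen. Alternatives were normexp background correction (limma 3.58.1 in R 4.3.3, offset 50), quantile, median, measured-probe or no scaling, the deposited table, outlier spots kept, the mean over probes, no filter on dim probes, and thresholds of 1.5-fold and 3-fold. The calls were tested on simulated data. Further tools were matplotlib 3.10.9, scipy 1.17.1, pandas 2.3.3 and numpy 2.4.6 under Python 3.11.15.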

Additional observations from a re-analysis of the deposited data

How the results depend on the processing

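No difference of the 7 genes changed sign under the alternatives run. Of the count of genes at least 2-fold lower in Pcgf6KO than in wildtype, 4 as reported, 2 were left without scaling, where Inpp5d was −0.95 and Ptprcap −0.93 and the median of all genes lay at 0.11, and 2 at a 3-fold threshold. Of the count higher in Pcgf6KO+ Pcgf6_flag than in wildtype, 3 as reported, 1 was left at a 3-fold threshold, 2 with median scaling, and 4 with normexp, without scaling, without the filter on dim probes or at 1.5-fold. Over the alternatives, Pcgf6KO minus wildtype ranged from −2.70 to −2.05 for Septin1, −2.66 to −2.28 for Myo1g, −1.12 to −0.95 for Inpp5d, −1.10 to −0.93 for Ptprcap, −0.83 to −0.66 for Cfp and −0.43 to −0.24 for Ms4a10. The log2 bound of Klrb1b in Pcgf6KO+ Pcgf6_flag minus Pcgf6KO ranged from 2.31 to 3.24. Without the filter on dim probes the plain difference from the dim Pcgf6KO signal, which is no bound, was 4.93. What caused these shifts was not tested. Over all genes, without the filter on dim probes 1589 were higher and 879 lower in Pcgf6KO than in wildtype, 1962 and 2196 in Pcgf6KO+ Pcgf6_flag than in Pcgf6KO, and 1764 and 1509 in Pcgf6KO+ Pcgf6_flag than in wildtype. At 1.5-fold these counts were 1755 and 1129, 1804 and 2137, and 1551 and 1553, and at 3-fold 320 and 145, 233 and 569, and 220 and 260. Higher in Pcgf6KO+ Pcgf6_flag than in wildtype were 452 with normexp and 1076 without scaling, where 450 were lower. Without scaling 77.7% of calls between Pcgf6KO and wildtype were higher, against 67.4% as reported, and 70.5% against 50.5% between Pcgf6KO+ Pcgf6_flag and wildtype, which was 39.2% with median scaling. The medians of all genes without scaling were 0.13 for Pcgf6KO+ Pcgf6_flag minus Pcgf6KO and 0.22 for Pcgf6KO+ Pcgf6_flag minus wildtype, and −0.14 for the second with median scaling. No paired analysis was possible because each group has 1 array, and for the same reason no array could be left out. Levels near the lowest signal well above background, such as those of Klrb1b and Ptprc, are limited by how far the signal stands above background. The same holds for the Pcgf6KO levels of C1qa (−5.97), Gab2 (−5.92), Dock2 (−5.89) and Septin12 (−5.41). The background-subtracted signal of negative control spots had an SD of 43.5 in Pcgf6KO+ Pcgf6_flag, 24.9 in Pcgf6KO and 22.1 in wildtype.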

Other observations

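A few blood-cell genes were well above background in wildtype only, the reverse of Klrb1b. Mcpt8, a basophil protease, was at least 38.8-fold lower in Pcgf6KO+ Pcgf6_flag and at least 69.6-fold lower in Pcgf6KO than in wildtype, where its level was −0.21. S100a8, a calcium-binding protein of neutrophils, was at least 4.60-fold and at least 8.25-fold lower on these arrays in that order, and its partner S100a9 was not well above background on any array. Klra4, a Ly49 receptor of natural killer cells, was at least 8.84-fold lower in Pcgf6KO+ Pcgf6_flag and at least 15.9-fold lower in Pcgf6KO than in wildtype, and the lysozyme gene Lyz2 at least 2.48-fold and at least 4.45-fold lower.

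Other genes resembled Ms4a10, with a high level in Pcgf6KO+ Pcgf6_flag and close levels elsewhere. Slc4a1, the anion exchanger of red cells, had a level of −3.20 in Pcgf6KO+ Pcgf6_flag, −4.84 in Pcgf6KO and −5.31 in wildtype. Nkg7, a granule protein of cytotoxic lymphocytes, had −3.20, −5.00 and −4.64 on the same arrays in that order. Of 12 blood progenitor and endothelial genes, 3 were lower in Pcgf6KO+ Pcgf6_flag than in Pcgf6KO (Runx1 −2.58, Cd34 −1.99 and Lmo2 −1.67 log2 units) and 1 was higher (Kdr, 1.41). The progenitor and endothelial list had 12 genes measured in Pcgf6KO+ Pcgf6_flag, 14 in Pcgf6KO and 14 in wildtype, with summed levels of 7.42, 9.94 and 8.04 times the 75th percentile signal.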
